A study of Homo sapiens with 2 samples.

Results

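The VWF-high endothelial cells were 214 of 2138 kept barcodes, the top 10.0% by share of unique molecular identifiers (UMIs) from VWF with both libraries pooled. A barcode stands for 1 captured droplet, and it was kept at 5000 or more UMIs with at most 10.0% of them from mitochondrial genes, which left 2138 of 5493 deposited barcodes. The choice used VWF alone, so every VWF value given here describes the choice and tests nothing. The last barcode inside stood at 986 VWF UMIs per 1000000 UMIs (CPM) and the first outside at 985 CPM, so the members are the upper end of a continuous range.

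All cells were human umbilical vein endothelial cells (HUVECs), primary venous endothelial cells, grown to a confluent layer over about 48 hours in microfluidic channels of 50 µm. In the 5% pdRBC library the layer was perfused for 4 hours with healthy red blood cells of which 5% had lost water to a nystatin and sucrose treatment, reaching 40 to 42 g/dL of mean hemoglobin concentration, to imitate the stiffness of sickle red cells. In the hRBC library it was perfused for 4 hours with healthy red blood cells only. Each treatment is 1 library of 10x Genomics 5′ single-cell RNA, and the labels give no number of devices or donors. No difference between treatments or between barcodes has a replicate, so none was tested. Intervals in brackets are exact 95% intervals and cover counting error only.

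VWF is a large adhesive glycoprotein made by endothelial cells and megakaryocytes. Endothelial cells store its multimers in Weibel-Palade bodies, secretory organelles that fuse with the surface when the cell is stimulated. The released strings tether platelets to the vessel wall and carry coagulation factor VIII, and neighbouring endothelial cells are known to differ in how much VWF they make.

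Members made up 162 of 1369 kept 5% pdRBC barcodes, 11.8% (10.2 to 13.7), and 52 of 769 kept hRBC barcodes, 6.76% (5.09 to 8.77). VWF stood at 1327 CPM in members and 324 CPM in the remaining barcodes of 5% pdRBC, and at 1265 and 333 CPM in those of hRBC. A 5% pdRBC member carried a median of 11 VWF UMIs, with a range of 5 to 34, and an hRBC member a median of 12, with a range of 6 to 28. The remaining barcodes had a median of 3 VWF UMIs in each library. When members were chosen on one random part of each barcode's UMIs and read in the other part of equal size, VWF was 2.86-fold higher in members of 5% pdRBC and 2.48-fold higher in members of hRBC, against 4.09-fold and 3.80-fold on all UMIs. Members were shallower, with a median of 8782.5 UMIs in members and 10370 in the remaining barcodes of 5% pdRBC, and of 9084 and 12487 in those of hRBC. All kept barcodes had a median of 10208 UMIs in 5% pdRBC and 12286 in hRBC. With every barcode thinned to 5000 UMIs, which leaves ties, members were 14.97% of 5% pdRBC and 11.2% of hRBC barcodes. The part of depth in the shares of members was not tested. No barcode sequence was shared between the members of the libraries.

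**Figure D1:**
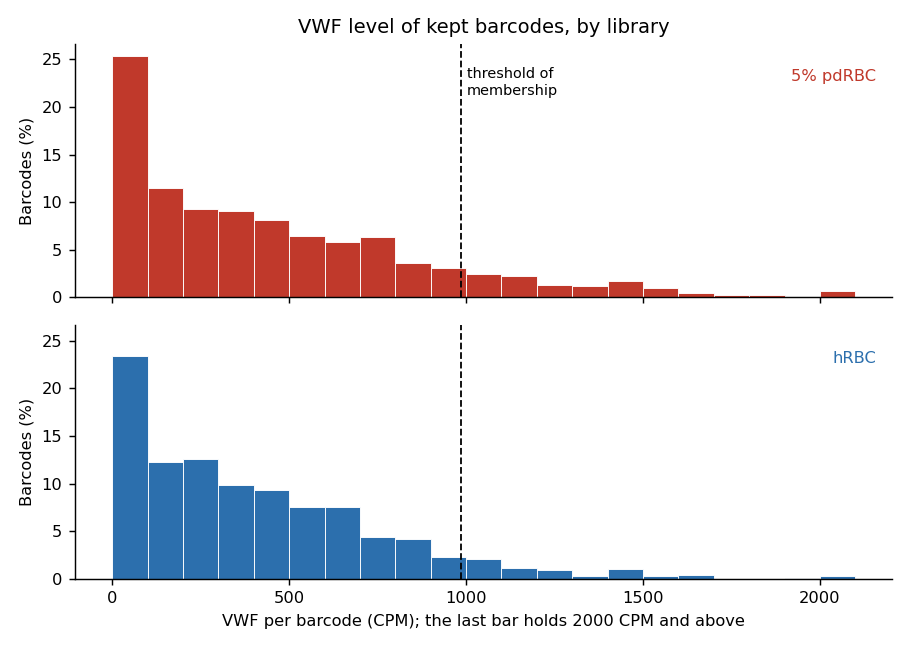
Share of kept barcodes (vertical axis, percent of each library) by VWF level (horizontal axis, CPM in steps of 100), for 5% pdRBC (1369 barcodes, upper panel) and hRBC (769 barcodes, lower panel). The dashed line is the membership threshold; 162 of 5% pdRBC and 52 of hRBC barcodes lie to its right, in the tail of a continuous distribution.

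The members carried endothelial markers, as their name says. All 9 endothelial markers other than VWF were detected, and of these 2, ERG and EMCN, were higher in members by the rule given below and none lower. PECAM1, an adhesion molecule of endothelial contacts, stood at 843 CPM in members and 678 CPM in the remaining barcodes of 5% pdRBC, and at 908 and 712 CPM in those of hRBC. EGFL7, a secreted endothelial protein, stood at 1048 CPM in members and 1164 CPM in the remaining barcodes of 5% pdRBC, and at 1139 and 1197 CPM in those of hRBC. ESAM, an adhesion molecule of endothelial junctions, stood at 227 CPM in members and 258 CPM in the remaining barcodes of 5% pdRBC, and at 246 and 266 CPM in those of hRBC. CLEC14A, a lectin-like endothelial receptor, stood at 212 CPM in members and 146 CPM in the remaining barcodes of 5% pdRBC, and at 136 and 148 CPM in those of hRBC, so not every marker was higher in members. The 9 markers summed to 3838 CPM in members and 3431 CPM in the remaining barcodes of 5% pdRBC, and to 4103 and 3553 CPM in those of hRBC. Megakaryocytes and platelets also hold VWF RNA, and of 12 of their markers 6 were at 0 in members of both libraries, PF4, PPBP, GP1BA, GP9, TUBB1 and TREML1. The 12 summed to 18.3 CPM in members and 16.4 CPM in the remaining barcodes of 5% pdRBC, and to 13.02 and 10.3 CPM in those of hRBC. Most of that was ITGB3, which endothelial cells also make, at 12.6 CPM in members of 5% pdRBC and 7.44 CPM in members of hRBC.

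Markers of other cell types were mostly at or near 0 in members. The main exceptions were RGS5, the keratins KRT7, KRT18 and KRT8, FLT4 and the monocyte marker CD68. Of 12 erythroid markers 11 were at 0 in members, and they summed to 0.632 CPM in members and 0.289 CPM in the remaining barcodes of 5% pdRBC, and to 0 and 0.213 CPM in those of hRBC. All 8 neutrophil markers were at 0 in members, as were 8 of 10 monocyte, 7 of 10 T and NK cell and 5 of 6 B cell markers. Monocyte markers summed to 12.004 CPM in members and 35.5 CPM in the remaining barcodes of 5% pdRBC, and to 27.9 and 31.2 CPM in those of hRBC, and T and NK cell markers to 6.95 CPM in members and 14.5 CPM in the remaining barcodes of 5% pdRBC, and to 13.02 and 15.9 CPM in those of hRBC. B cell markers summed to 1.895 CPM in members and 1.52 CPM in the remaining barcodes of 5% pdRBC, and to 0 and 1.38 CPM in those of hRBC. Fibroblast and mural markers, 5 of 13 at 0, summed to 284 CPM in members and 355 CPM in the remaining barcodes of 5% pdRBC, and to 335 and 391 CPM in those of hRBC. Most of that was RGS5, a regulator of G protein signalling known from pericytes, at 260.3 CPM in members and 335 CPM in the remaining barcodes of 5% pdRBC, and 318 and 368 CPM in those of hRBC. Epithelial markers, 4 of 10 at 0, summed to 138 CPM in members and 254 CPM in the remaining barcodes of 5% pdRBC, and to 153 and 344 CPM in those of hRBC. Most of that was KRT7, KRT18 and KRT8, at 61.9, 53.1 and 16.4 CPM in members of 5% pdRBC. In members of hRBC these keratins stood at 53.96, 53.96 and 33.5 CPM. KRT5, KRT14, CDH1 and CLDN4 were at 0 in members, and EPCAM had 1 UMI in members of 5% pdRBC and 0 in those of hRBC. Lymphatic endothelial markers, with PDPN and CCL21 at 0, summed to 22.1 CPM in members and 13.02 CPM in the remaining barcodes of 5% pdRBC, and to 22.3 and 10.1 CPM in those of hRBC. Most of that was 1 gene, FLT4. It stood at 17.7 CPM in members and 7.81 CPM in the remaining barcodes of 5% pdRBC, and at 16.7 and 5.86 CPM in those of hRBC. The part of these cell types in the results below was not tested.

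Beyond VWF, members differed from the remaining barcodes in many genes. A gene was compared at 500 or more UMIs over all kept barcodes and called when it was at least 1.25-fold higher, or lower, in members of both libraries. Of 6474 genes, 763 (11.8%) were higher and 385 (5.95%) lower. The log2 differences of both libraries had a Pearson r of 0.50 across these genes, a description, since genes are not replicates. The median gene was 0.03 higher in members of 5% pdRBC and 0.06 higher in members of hRBC on the log2 scale. This balance depends on the scaling. Under TMM scaling, a trimmed-mean factor for each sum, the medians were −0.11 and −0.10, and 335 genes were higher and 868 lower, so that higher genes made up 27.8% of the calls in place of 66.5%. Counts under TMM scaling are therefore given beside the lists below. Each list count is to be read beside the shares over all 6474 genes, 11.8% higher and 5.95% lower.

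The 12 genes with the largest higher folds in both libraries were AUTS2, ANO2, CASC15, ARL15, RASGRP3, LDB2, DISC1, SULF2, ACE, TBCK, MRC2 and FAM155A. Their folds ran from 2.16 to 3.80 in 5% pdRBC and from 2.05 to 2.92 in hRBC. ANO2, a calcium-activated chloride channel, stood at 262 CPM in 5% pdRBC members against 79.1 CPM in the remaining barcodes, and at 221 CPM in hRBC members against 78.8 CPM, log2 differences of 1.73 (1.56 to 1.89) in 5% pdRBC and 1.5 (1.2 to 1.77) in hRBC. ACE, the angiotensin-converting enzyme on the endothelial surface, stood at 124 CPM in 5% pdRBC members against 32.8 CPM in the remaining barcodes, and at 65.1 CPM in hRBC members against 30.7 CPM, log2 differences of 1.93 (1.68 to 2.17) in 5% pdRBC and 1.10 (0.54 to 1.60) in hRBC. In hRBC the members held 35 ACE UMIs, 22.9% of them in 1 barcode. LDB2, a cofactor that bridges LIM-domain transcription factors, stood at 457 CPM in 5% pdRBC members against 159 CPM in the remaining barcodes, and at 314 CPM in hRBC members against 134 CPM.

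FAM155A, an auxiliary subunit of the sodium leak channel, was the most abundant of the 12, at 698 CPM in members and 290.4 CPM in the remaining barcodes of 5% pdRBC, and 543 and 265 CPM in those of hRBC. AUTS2, a chromatin regulator best known from neurons, stood at 80.9 CPM in members and 28.5 CPM in the remaining barcodes of 5% pdRBC, and at 70.7 and 24.5 CPM in those of hRBC. CASC15, a long non-coding RNA, stood at 64.4 CPM in members and 20.5 CPM in the remaining barcodes of 5% pdRBC, and at 52.1 and 19.8 CPM in those of hRBC. RASGRP3, an exchange factor for Ras proteins, stood at 90.3 CPM in members and 37.98 CPM in the remaining barcodes of 5% pdRBC, and at 104 and 44.4 CPM in those of hRBC. SULF2, which removes sulfate from heparan sulfate chains outside the cell, stood at 65.7 CPM in members and 30.02 CPM in the remaining barcodes of 5% pdRBC, and at 61.4 and 27.9 CPM in those of hRBC. MRC2, an endocytic collagen receptor, stood at 51.8 CPM in members and 21.8 CPM in the remaining barcodes of 5% pdRBC, and at 42.8 and 21.1 CPM in those of hRBC, and came to −0.21 on the log2 scale in hRBC when every barcode was thinned to 5000 UMIs.

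**Figure D2:**
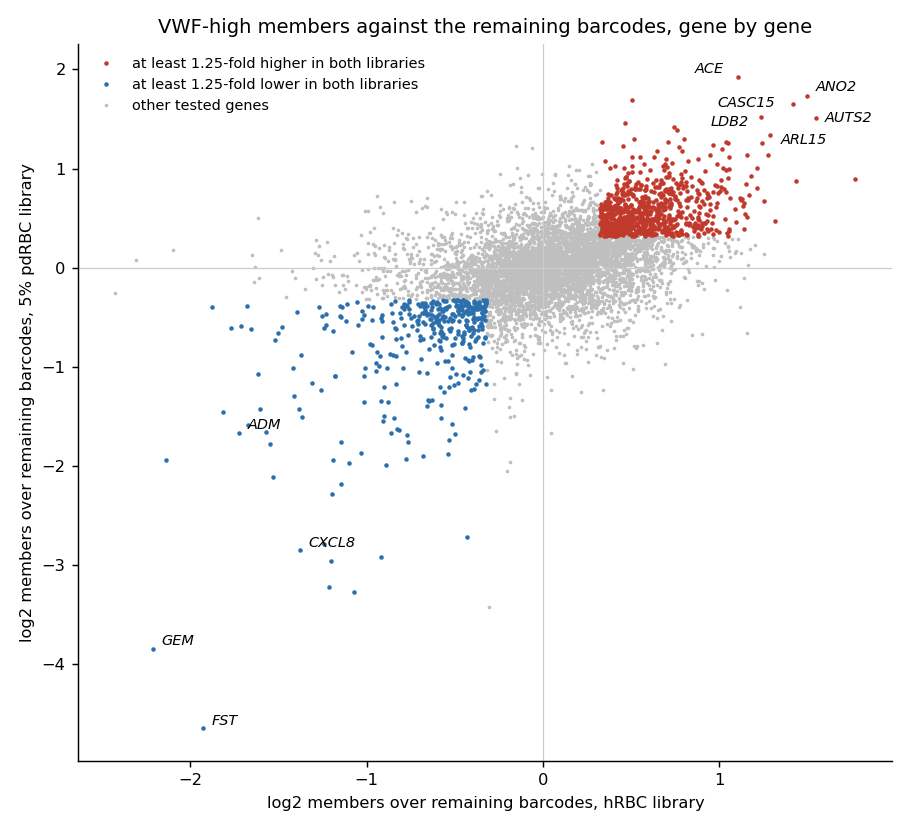
Log2 fold of members over the remaining barcodes for 6474 genes in hRBC (horizontal axis) and 5% pdRBC (vertical axis), 1 point per gene, VWF left out. Red points are the 763 genes at least 1.25-fold higher in both libraries and blue points the 385 genes at least 1.25-fold lower; ANO2 lies at the upper right and GEM and FST at the lower left.

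Gene length went with these differences. VWF, on which the members were chosen, itself spans 176 kb and was left out of the long-gene shares below. The part of choosing on a long gene in these differences was not tested. Of the 12 leading higher genes 10 span 100 kb or more of the genome, with a median span of 406 kb, while 1 of the 12 leading lower genes does, with a median of 14.1 kb. Among tested genes of 300 kb or more 47.5% were higher and 2.02% lower, and among those under 10 kb 3.11% were higher and 11.5% lower. Genes of 100 kb or more gave 16.2% of UMIs in members and 13.5% in the remaining barcodes of 5% pdRBC, and 16.5% and 13.3% in those of hRBC. Per barcode the median share was 16.1% in members and 13.6% in the remaining barcodes of 5% pdRBC, and 14.5% and 13.4% in those of hRBC. Shares above 30% were found in 3 members and 4 remaining barcodes of 5% pdRBC, and in 2 members and 3 remaining barcodes of hRBC, where the highest member reached 49.8%. Without these barcodes 613 genes were higher and 371 lower. MALAT1, a long RNA that stays in the nucleus, gave 0.964% of UMIs in members and 0.718% in the remaining barcodes of 5% pdRBC, and 0.907% and 0.699% in those of hRBC. The mitochondrial share was 2.07% in members and 1.85% in the remaining barcodes of 5% pdRBC, and 1.93% and 1.82% in those of hRBC.

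When the remaining barcodes were weighted to the members' distribution of long-gene UMIs, 330 genes were higher and 366 lower, and when they were weighted to the members' depth, 593 and 324. With weighting on long-gene share the log2 differences of ANO2 were 1.35 in 5% pdRBC and 1.30 in hRBC, and those of ACE 1.60 and 0.94. AUTS2 came to 0.95 in 5% pdRBC and 1.00 in hRBC, and FAM155A to 0.81 and 0.68. The part of nuclear or unspliced RNA in these results was not tested.

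ANO2 is also a genomic neighbour of VWF. In GENCODE 29 on GRCh38, VWF lies at chr12:5948874-6124770 and ANO2 at chr12:5531869-5946232, both on the minus strand, so that ANO2 starts 2642 bases past the end of VWF. Whether transcripts running past the end of VWF were counted for ANO2 was not tested. Of 7 tested genes within 500 kb of VWF, ANO2 was higher, CD9 and MRPL51 were lower, and the others were not called. CD9, a tetraspanin at chr12:6199715-6238271 that was named for its position and after its values were seen, stood at 292 CPM in 5% pdRBC members against 746 CPM in the remaining barcodes, and at 352 CPM in hRBC members against 714 CPM, log2 differences of −1.35 (−1.49 to −1.22) in 5% pdRBC and −1.02 (−1.24 to −0.81) in hRBC. MRPL51, a mitochondrial ribosomal protein, stood at 208 CPM in members and 275 CPM in the remaining barcodes of 5% pdRBC, and at 207 and 288 CPM in those of hRBC.

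The promoters of ANO2 and ACE are shown because these genes had the largest folds of the 12 in 5% pdRBC, and because VWF is itself activated through ETS and GATA factors. Each runs from 250 bases before to 50 bases after a RefSeq transcription start (GRCh38.p14), 5′ to 3′ along the gene. Capitals mark the ETS core GGAA and the motif GATA on either strand, so that TTCC and TATC are capitals as well. Of the 12 leading genes 8 had a promoter in the RefSeq table, ANO2 and ACE with 2 starts each. The ANO2 promoters lie at chr12:5946183-5946482 and chr12:5945210-5945509 on the minus strand, and the ACE promoters at chr17:63484596-63484895 and chr17:63476811-63477110 on the plus strand.
ANO2, first start: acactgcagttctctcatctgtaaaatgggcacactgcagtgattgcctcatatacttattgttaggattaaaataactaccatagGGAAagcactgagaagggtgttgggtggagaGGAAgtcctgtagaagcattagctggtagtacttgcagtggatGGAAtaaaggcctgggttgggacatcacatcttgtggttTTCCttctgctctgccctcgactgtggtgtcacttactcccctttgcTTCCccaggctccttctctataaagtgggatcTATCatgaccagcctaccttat
ANO2, other start: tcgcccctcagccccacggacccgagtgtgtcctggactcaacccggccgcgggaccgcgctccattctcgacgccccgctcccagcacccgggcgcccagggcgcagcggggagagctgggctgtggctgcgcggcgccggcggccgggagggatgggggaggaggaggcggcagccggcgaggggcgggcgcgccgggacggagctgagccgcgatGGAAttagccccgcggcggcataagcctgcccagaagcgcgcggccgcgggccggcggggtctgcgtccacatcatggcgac
ACE, first start: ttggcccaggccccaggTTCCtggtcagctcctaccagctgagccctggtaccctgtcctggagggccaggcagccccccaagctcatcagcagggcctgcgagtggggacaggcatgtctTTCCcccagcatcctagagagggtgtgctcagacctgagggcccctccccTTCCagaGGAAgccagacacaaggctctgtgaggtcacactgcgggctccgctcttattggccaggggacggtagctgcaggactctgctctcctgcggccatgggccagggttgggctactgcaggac
ACE, other start: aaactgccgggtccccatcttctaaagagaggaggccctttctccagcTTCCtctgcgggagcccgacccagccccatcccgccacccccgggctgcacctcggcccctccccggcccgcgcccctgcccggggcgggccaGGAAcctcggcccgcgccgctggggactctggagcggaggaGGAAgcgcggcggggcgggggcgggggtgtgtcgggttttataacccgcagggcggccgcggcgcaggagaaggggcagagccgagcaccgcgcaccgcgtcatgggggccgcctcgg
The first ANO2 promoter holds 5 ETS cores and 1 GATA motif, and the other 1 ETS core and 0 GATA motifs. The ACE promoters hold 4 and 3 ETS cores and 0 GATA motifs. With 1 promoter of 300 bases per gene, GATA occurred in 35.2% of 614 higher genes, 36.9% of 314 lower genes, 35.2% of 5301 tested genes and 50.5% of all 27305 promoters. GGAA occurred in 93.97% of the higher, 95.9% of the lower and 95.2% of the tested genes, and in 95.5% of all promoters. A match is a run of letters and not a bound site.

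The 12 genes with the largest lower folds included GEM, FST, ADM, HIF1A-AS3, TRBC2, TBC1D2, FSTL3, CLDN14, ERRFI1, CXCL8 and LOX. CXCL8, a neutrophil-attracting chemokine that Weibel-Palade bodies can carry, stood at 11.4 CPM in 5% pdRBC members against 84.3 CPM in the remaining barcodes, and at 14.9 CPM in hRBC members against 41.1 CPM, log2 differences of −2.85 (−3.65 to −2.22) in 5% pdRBC and −1.38 (−2.69 to −0.47) in hRBC. All 8 CXCL8 UMIs of hRBC members were in 1 barcode. ADM, the vasodilator peptide adrenomedullin, had 16 UMIs in 5% pdRBC members and 2 in hRBC members, log2 differences of −1.67 (−2.53 to −0.99) in 5% pdRBC and −1.73 (−5.10 to −0.16) in hRBC. GEM, a small GTP-binding protein, had 3 UMIs in 5% pdRBC members and 1 in hRBC members, log2 differences of −3.84 (−6.35 to −2.51) in 5% pdRBC and −2.21 (−8.11 to −0.29) in hRBC. FST, the activin antagonist follistatin, had 1 and 5 UMIs, log2 differences of −4.64 (−10.53 to −2.74) in 5% pdRBC and −1.93 (−3.69 to −0.83) in hRBC. With every barcode thinned to 5000 UMIs, the log2 differences of ADM were −0.54 in 5% pdRBC and −1.90 in hRBC, those of GEM −3.47 and −0.39, and those of FST −3.37 and −0.47.

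FSTL3, a relative of follistatin, stood at 14.5 CPM in members and 40.7 CPM in the remaining barcodes of 5% pdRBC, and at 9.303 and 35.9 CPM in those of hRBC. ERRFI1, a feedback inhibitor of the epidermal growth factor receptor, stood at 27.2 CPM in members and 73.8 CPM in the remaining barcodes of 5% pdRBC, and at 16.7 and 46.02 CPM in those of hRBC. LOX, which cross-links collagen, stood at 12.6 CPM in members and 36.8 CPM in the remaining barcodes of 5% pdRBC, and at 13.02 and 35.9 CPM in those of hRBC. CLDN14, a tight junction claudin, stood at 16.4 CPM in members and 44.9 CPM in the remaining barcodes of 5% pdRBC, and at 9.303 and 31.1 CPM in those of hRBC. The count of HIF1A-AS3, an antisense RNA, is uncertain because the use of strand is not stated, and that of TRBC2 because it has a near-identical copy.

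For ANO2, ACE and CD9, which were picked because they differ in members, the differences did not arise only at the threshold. Kept barcodes of each library were ordered by VWF share and divided into 10 bins of about equal size, of which the highest overlaps the members without being the same barcodes. ANO2 had 15.7, 67.3, 134 and 271 CPM in bins 1, 4, 7 and 10 of 5% pdRBC, and 7.72, 74.5, 115 and 203 CPM in the same bins of hRBC. ACE had 10.7, 20.8, 43.8 and 115 CPM in those bins of 5% pdRBC and 13.2, 22.9, 45.2 and 65.8 CPM in hRBC. CD9 had 1008, 857, 549 and 290.1 CPM in 5% pdRBC and 907, 708, 672 and 372 CPM in hRBC. ANO2 and ACE were higher, and CD9 lower, at each of these steps. The order was not strict over all 10 bins, since ANO2 had 121 CPM in bin 8 of 5% pdRBC, below its level in bin 7. CXCL8 had 86.5, 76.4, 61.8 and 7.68 CPM in bins 1, 4, 7 and 10 of 5% pdRBC, but 174 CPM in bin 3. In hRBC it had 107, 68.8, 20.7 and 14.9 CPM. FST had 39.3, 29.3, 19.3 and 0.768 CPM in 5% pdRBC and 15.4, 132, 25.4 and 26.1 CPM in hRBC. It was thus not ordered in hRBC, where its highest bin lay above bin 1. ERG, an ETS factor, had 138, 163, 214 and 263 CPM in 5% pdRBC and 183, 163, 185 and 252 CPM in hRBC. GATA2, a GATA factor, had 56.5, 58.1, 50.8 and 53.7 CPM in 5% pdRBC and 51.9, 76.4, 42.4 and 40.9 CPM in hRBC. Neither was ordered over these bins in both libraries.

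**Figure D3:**
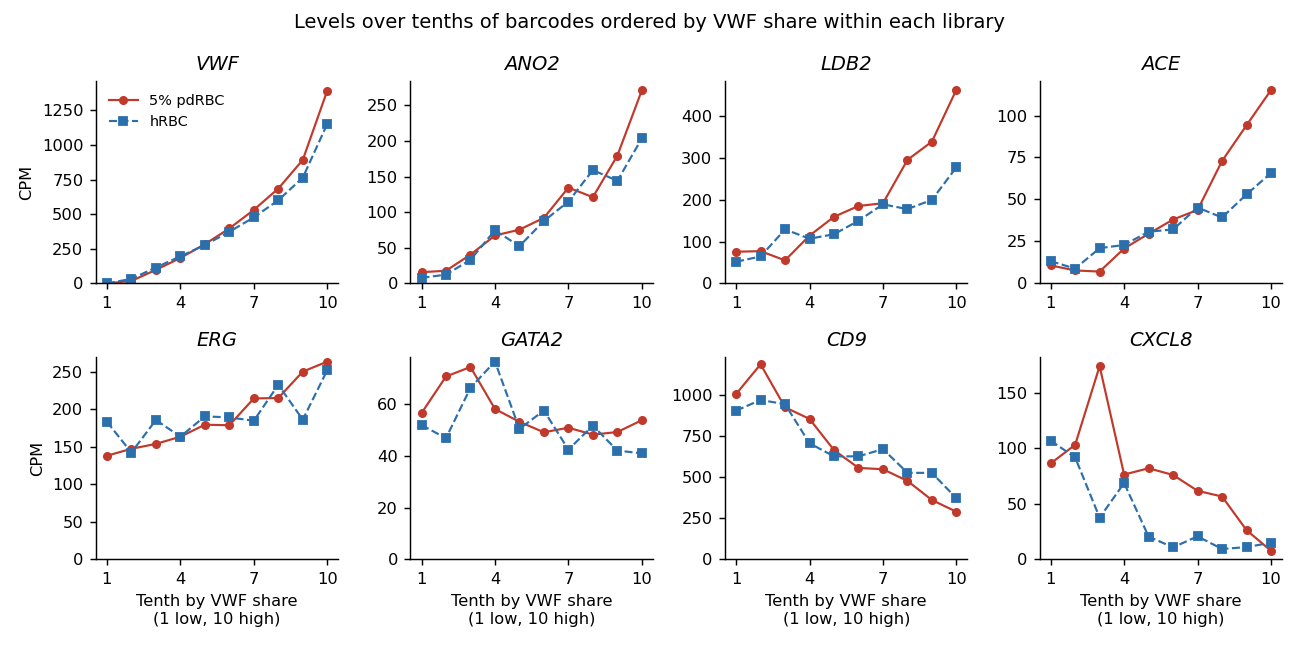
Level of 8 genes (vertical axes, CPM) over 10 bins of kept barcodes ordered by VWF share within each library (horizontal axis), for 5% pdRBC and hRBC, 1 sum of UMIs per point. ANO2, LDB2 and ACE lie higher in the upper bins and CD9 lower. CXCL8 in 5% pdRBC lies highest in bin 3.

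Other cargoes of Weibel-Palade bodies, the organelle that stores VWF, differed in both directions. Of 8 tested 2 were higher and 1 was lower, with 1 higher and 2 lower under TMM scaling, and the median log2 difference was −0.11 in 5% pdRBC and 0.03 in hRBC. MMRN1, a multimeric glycoprotein that binds factor V, was higher, at 413 CPM in members and 277 CPM in the remaining barcodes of 5% pdRBC, and 354 and 243 CPM in those of hRBC. ANGPT2, an angiopoietin that loosens vessel contacts, was higher as well, at 100.5 CPM in members and 73.4 CPM in the remaining barcodes of 5% pdRBC, and 78.1 and 55.7 CPM in those of hRBC. The lower cargo was CXCL8. CD63, a tetraspanin of the organelle membrane, stood at 725 CPM in members and 899 CPM in the remaining barcodes of 5% pdRBC, and at 668 and 847 CPM in those of hRBC and was not called.

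Over all 6474 tested genes 11.8% were higher and 5.95% lower, with 335 higher and 868 lower under TMM scaling. Of 40 tested genes of Weibel-Palade body trafficking and exocytosis 3 were higher and 4 lower, with 1 higher and 6 lower under TMM scaling, and the medians were 0.02 in 5% pdRBC and 0.05 in hRBC. The higher genes were EXOC4 and EXOC6 of the exocyst, which tethers vesicles, and the myosin MYH9, and none of them passed with the remaining barcodes weighted on long-gene share. EXOC4 stood at 89.1 CPM in members and 58.02 CPM in the remaining barcodes of 5% pdRBC, and at 98.6 and 53.9 CPM in those of hRBC. The lower genes were S100A10, ANXA2, ARF1 and ARF4. S100A10, which forms a complex with ANXA2 that acts in release of the organelle, stood at 1082 CPM in members and 1808 CPM in the remaining barcodes of 5% pdRBC, and at 1419.7 and 1949 CPM in those of hRBC. RAB27A, which anchors the organelle, had 30 and 13 UMIs in members of 5% pdRBC and hRBC and was below the minimum.

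Of 18 tested genes for folding, sorting and cleavage of VWF 1 was higher and none lower, with 1 higher and none lower under TMM scaling, and the medians were −0.04 in 5% pdRBC and 0.16 in hRBC. The higher gene was ST6GAL1, a sialyltransferase, at 47.4 CPM in members and 26.5 CPM in the remaining barcodes of 5% pdRBC, and 37.2 and 17.1 CPM in those of hRBC. FURIN, the protease that cleaves the VWF propeptide, stood at 156 CPM in members and 157 CPM in the remaining barcodes of 5% pdRBC, and at 184 and 164 CPM in those of hRBC. SURF4, a receptor for export from the endoplasmic reticulum, stood at 223 CPM in members and 230.3 CPM in the remaining barcodes of 5% pdRBC, and at 229 and 222 CPM in those of hRBC.

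Of 16 tested transcription regulators of VWF 4 were higher and none lower, with 2 higher and 1 lower under TMM scaling, and the medians were 0.15 in 5% pdRBC and 0.30 in hRBC. ERG stood at 256 CPM in 5% pdRBC members against 181 CPM in the remaining barcodes, and at 266 CPM in hRBC members against 184 CPM, log2 differences of 0.51 (0.35 to 0.66) in 5% pdRBC and 0.53 (0.27 to 0.78) in hRBC. FLI1, another ETS factor, stood at 124 CPM in members and 90.5 CPM in the remaining barcodes of 5% pdRBC, and at 147 and 89.9 CPM in those of hRBC. ELK3, also of the ETS family, stood at 136 CPM in members and 90.8 CPM in the remaining barcodes of 5% pdRBC, and at 117 and 90.8 CPM in those of hRBC. NFIB, of the nuclear factor I family, stood at 231 CPM in members and 141 CPM in the remaining barcodes of 5% pdRBC, and at 192 and 143 CPM in those of hRBC. GATA2 stood at 54.3 CPM in members and 56.8 CPM in the remaining barcodes of 5% pdRBC, and at 50.2 and 52.8 CPM in those of hRBC and was not called. With the remaining barcodes weighted on long-gene share none of the 16 was higher and 1 was lower. Of all 6474 tested genes 330 were higher and 366 lower with that weighting.

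The basement membrane and matrix list held the most higher genes of the lists used. Of 24 tested genes 13 were higher and 2 lower, with 7 higher and 2 lower under TMM scaling, and the medians were 0.39 in 5% pdRBC and 0.46 in hRBC. HSPG2, the heparan sulfate proteoglycan perlecan, stood at 1485 CPM in 5% pdRBC members against 821 CPM in the remaining barcodes, and at 1490.4 CPM in hRBC members against 883 CPM, log2 differences of 0.86 (0.79 to 0.92) in 5% pdRBC and 0.76 (0.65 to 0.86) in hRBC. COL4A1, a chain of the network-forming collagen of basement membranes, stood at 422 CPM in members and 247 CPM in the remaining barcodes of 5% pdRBC, and at 528 and 264 CPM in those of hRBC. FBN1, the microfibril protein fibrillin, stood at 82.8 CPM in members and 45.3 CPM in the remaining barcodes of 5% pdRBC, and at 123 and 45.7 CPM in those of hRBC. NID1, which links laminin to collagen, stood at 36.6 CPM in members and 21.1 CPM in the remaining barcodes of 5% pdRBC, and at 46.5 and 23.5 CPM in those of hRBC. COL4A2, COL5A2, COL18A1, LAMA4, LAMB1, LAMB2, MMRN1, BGN and MGP were the other higher genes, and LAMA5 and LOX the lower ones. With the remaining barcodes weighted on long-gene share 10 of the 24 were higher and 2 lower. With members chosen and read in separate UMIs 9 of 20 were higher and none lower.

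Lists of vessel identity had medians above those of all tested genes. Of 23 genes of endothelial identity and junctions 5 were higher and 1 was lower, with 3 higher and 1 lower under TMM scaling, and the medians were 0.30 in 5% pdRBC and 0.27 in hRBC. EMCN, the sialomucin endomucin, was higher, at 353 CPM in members and 163 CPM in the remaining barcodes of 5% pdRBC, and 287 and 186 CPM in those of hRBC. ICAM2, an adhesion molecule of endothelial contacts, was lower, at 139.6 CPM in members and 240.1 CPM in the remaining barcodes of 5% pdRBC, and 153 and 236 CPM in those of hRBC. Of 6 venous genes NRP2, EPHB4 and CLU were higher, with 2 higher and 1 lower under TMM scaling. Of 10 arterial genes EFNB2, NOTCH4, JAG2 and NRP1 were higher, with 2 higher and 1 lower under TMM scaling. NRP2, a co-receptor for growth factors, stood at 298 CPM in members and 177 CPM in the remaining barcodes of 5% pdRBC, and at 307 and 188 CPM in those of hRBC. EFNB2, the ligand of EPHB4, stood at 278 CPM in members and 161 CPM in the remaining barcodes of 5% pdRBC, and at 216 and 148 CPM in those of hRBC. Of 17 genes of tip cells and angiogenesis 7 were higher and 2 lower, with 3 higher and 2 lower under TMM scaling, and the medians were 0.20 in 5% pdRBC and 0.43 in hRBC. With weighting on long-gene share 3 tip cell genes were higher and 2 lower, and 2 genes of endothelial identity were higher and 1 lower. The same weighting gave 3 higher and 1 lower venous genes, and 3 higher and none lower arterial genes.

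**Figure D4:**
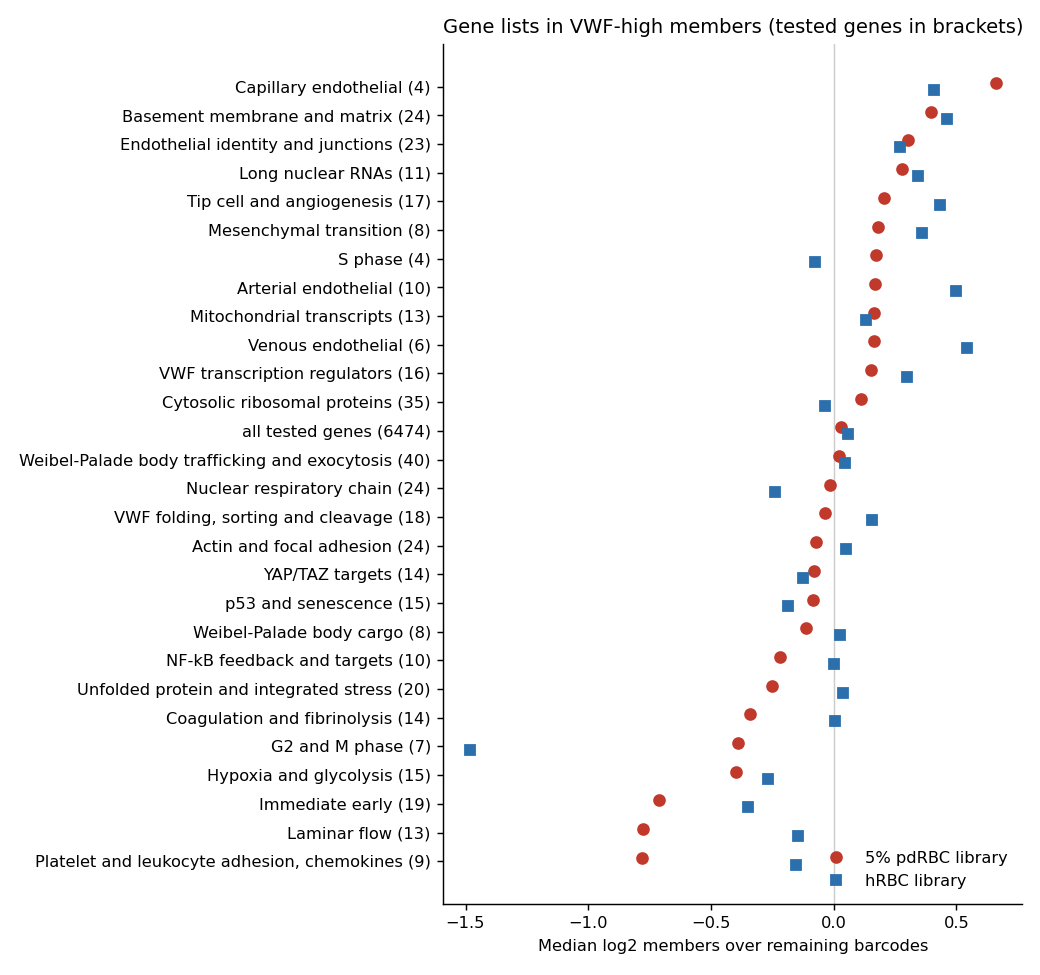
Median log2 fold of members over the remaining barcodes (horizontal axis) for each gene list with 4 or more tested genes (vertical axis, number tested in brackets), in 5% pdRBC and hRBC. Basement membrane and matrix lies at 0.39 and 0.46, all tested genes at 0.03 and 0.06, and immediate early genes at −0.71 and −0.35.

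Immediate early genes, which are switched on within minutes of a stimulus, were lower in members. Of 19 tested none was higher and 12 were lower, with none higher and 14 lower under TMM scaling, and the medians were −0.71 in 5% pdRBC and −0.35 in hRBC. FOSB, a subunit of the AP-1 factor, stood at 34.7 CPM in members and 109 CPM in the remaining barcodes of 5% pdRBC, and at 24.2 and 44.2 CPM in those of hRBC. ATF3, a stress-induced transcription factor, stood at 26.5 CPM in members and 106 CPM in the remaining barcodes of 5% pdRBC, and at 16.7 and 32.7 CPM in those of hRBC. DUSP1, a phosphatase that turns off MAP kinases, stood at 70.1 CPM in members and 181 CPM in the remaining barcodes of 5% pdRBC, and at 53.96 and 101 CPM in those of hRBC. The list had 14 lower genes with weighting on long-gene share, 9 with weighting on depth and 7 of 17 with separate UMIs, and none higher in each. Of 9 genes of cell adhesion and chemokines 4 were lower, ICAM2, CXCL1, CXCL8 and PTX3, and none was higher, with none higher and 4 lower under TMM scaling. PTX3, a secreted pattern-recognition protein, stood at 23.4 CPM in members and 116 CPM in the remaining barcodes of 5% pdRBC, and at 46.5 and 109 CPM in those of hRBC.

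Of 13 genes responsive to laminar flow 1, CYP1B1, was higher and 6 were lower, with 1 higher and 6 lower under TMM scaling, and the medians were −0.78 in 5% pdRBC and −0.15 in hRBC. HMOX1, the enzyme that degrades heme, stood at 248 CPM in 5% pdRBC members against 843 CPM in the remaining barcodes, and at 396 CPM in hRBC members against 677 CPM. KLF4, a flow-induced transcription factor, stood at 46.8 CPM in members and 150.3 CPM in the remaining barcodes of 5% pdRBC, and at 50.2 and 72.2 CPM in those of hRBC. KLF2, its relative, stood at 127 CPM in members and 157 CPM in the remaining barcodes of 5% pdRBC, and at 134 and 149 CPM in those of hRBC and was not called. Of 15 genes of hypoxia and glycolysis PFKL was higher and 4 were lower, with none higher and 8 lower under TMM scaling, and the medians were −0.40 in 5% pdRBC and −0.27 in hRBC. LDHA, the lactate dehydrogenase subunit of glycolytic cells, was among the lower ones, at 143 CPM in members and 267 CPM in the remaining barcodes of 5% pdRBC, and 244 and 322 CPM in those of hRBC.

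The other lists were as follows, to be read beside all 6474 tested genes. Of those 11.8% were higher and 5.95% lower, with 335 higher and 868 lower under TMM scaling. G2 and M phase genes, 4 of 7 lower, summed to 371 CPM in members and 450.4 CPM in the remaining barcodes of 5% pdRBC, and to 227 and 590.1 CPM in those of hRBC, with none higher and 4 lower under TMM scaling. Of 14 YAP/TAZ targets CCN1, ANKRD1 and FST were lower, with none higher and 5 lower under TMM scaling. Of 20 genes of the unfolded protein and stress response DNAJB9, SDF2L1 and PPP1R15A were lower, with none higher and 5 lower under TMM scaling. Of 15 genes of p53 and senescence TP53INP1 and ZMAT3 were higher and GDF15 lower, with 1 higher and 4 lower under TMM scaling. Without TMM scaling these p53 and senescence counts are near the shares over all tested genes. Of 8 genes of mesenchymal transition ZEB1, ZEB2 and TGFBR2 were higher, with 1 higher and 1 lower under TMM scaling and 1 higher with weighting on long-gene share. Of 14 genes of coagulation and fibrinolysis HSPG2 and GAS6 were higher and PLAUR, PROCR, ANXA2 and ANXA5 lower, with 1 higher and 5 lower under TMM scaling. Of 10 NF-kB targets NFKBIA and RELB were lower, with none higher and 3 lower under TMM scaling. Of 24 actin and focal adhesion genes MYL12A was lower, with none higher and 6 lower under TMM scaling. Of 24 nuclear respiratory chain genes NDUFC1, SDHB and COX6A1 were lower, with none higher and 4 lower under TMM scaling. Of 11 long nuclear RNAs MALAT1, NEAT1, FTX and SNHG14 were higher and MIR100HG lower, with 2 higher and 2 lower under TMM scaling and none higher and 1 lower with weighting on long-gene share. Of 4 capillary genes FABP4 was higher and none lower, with 1 higher and none lower under TMM scaling. Of 13 mitochondrial transcripts MT-ND6 was higher and none lower, with none higher and none lower under TMM scaling and none higher with weighting on long-gene share, with weighting on depth or in separate UMIs. Of 35 ribosomal protein genes none was called, with none higher and none lower under TMM scaling. Of 2 tested epithelial markers the keratins KRT7 and KRT18 were lower, with none higher and 2 lower under TMM scaling. KRT7 stood at 61.9 CPM in members and 131 CPM in the remaining barcodes of 5% pdRBC, and at 53.96 and 168 CPM in those of hRBC.

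Members were set against 10 other states of these cells, each a set of 214 barcodes chosen in the same way. The set highest in LDB2, MAGI1 and DACH1 held 37.04% of members and 9.44% of the remaining barcodes of 5% pdRBC, and 11.5% and 4.74% of those of hRBC. The set highest in MGP and FABP4 held 26.5% of members and 9.03% of the remaining barcodes of 5% pdRBC, and 9.62% and 7.95% of those of hRBC. The shares of hRBC members were 6 barcodes in the LDB2, MAGI1 and DACH1 set and 5 in the MGP and FABP4 set. The set highest in HMOX1 held 0.617% of members and 12.3% of the remaining barcodes of 5% pdRBC, and 1.92% and 8.79% of those of hRBC. Each share of members there was 1 barcode. The one highest in KRT7, TGFB2 and FST held 4.32% of members and 9.44% of the remaining barcodes of 5% pdRBC, and 0% and 12.97% of those of hRBC. For 0 of 52 members the approximate limit of 3 over the number of members is a share of 5.77%, which is not an exact interval. The set of immediate early genes held 5.56% of members and 15.1% of the remaining barcodes of 5% pdRBC, and 1.92% and 3.07% of those of hRBC. Its share of hRBC members was again 1 barcode. In the others, including sets of KLF2 and NOS3, of APLN and MEST, of CCN1, CCN2 and THBS1, and of G2 and M phase genes, the shares of members ran from 6.79% to 9.26% in 5% pdRBC and from 7.69% to 11.5% in hRBC, beside 8.45% to 11.8% and 7.39% to 13.2% of the remaining barcodes.

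Within members, 5% pdRBC was set against hRBC to describe what stiff red cells go with in the VWF-rich cells. A gene was compared at 100 or more UMIs over all members and called at 1.5-fold, and the 52 hRBC members limit every value. Of 3655 genes 119 (3.26%) were higher and 125 (3.42%) lower in 5% pdRBC members. Over the same genes in the remaining barcodes, which hold many more UMIs, 24 (0.657%) were higher and 9 (0.246%) lower in 5% pdRBC. A larger count in members cannot be told apart from their fewer UMIs.

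Genes higher in 5% pdRBC members were led by MYH10, FABP5, DACH1, FOS and FABP4. MYH10, a non-muscle myosin heavy chain, stood at 63.8 CPM in 5% pdRBC members and 18.6 CPM in hRBC members, a log2 difference of 1.71 (0.84 to 2.88), beside 0.44 in the remaining barcodes. FABP5, a fatty acid carrier, stood at 391 CPM in 5% pdRBC members and 123 CPM in hRBC members, a log2 difference of 1.66 (1.30 to 2.06), beside 0.51 in the remaining barcodes. FABP4, a fatty acid carrier of capillary endothelium, stood at 186 CPM in 5% pdRBC members and 66.98 CPM in hRBC members, a log2 difference of 1.45 (0.97 to 2.01), beside 0.27 in the remaining barcodes, and 33.3% of its 36 UMIs in hRBC members were in 1 barcode. DACH1, a transcription factor of coronary artery growth in mice, stood at 63.8 CPM in 5% pdRBC members and 20.5 CPM in hRBC members, a log2 difference of 1.58 (0.74 to 2.69), beside 0.59 in the remaining barcodes. ALDH1A1, a retinaldehyde dehydrogenase, stood at 136 CPM in 5% pdRBC members and 52.1 CPM in hRBC members, a log2 difference of 1.37 (0.82 to 2.01), beside 0.60 in the remaining barcodes. MGP, a matrix protein that binds bone morphogenetic proteins, stood at 754 CPM in 5% pdRBC members and 404 CPM in hRBC members, a log2 difference of 0.90 (0.69 to 1.12), beside 0.18 in the remaining barcodes. The sets of MGP and FABP4 and of LDB2, MAGI1 and DACH1, given above, were chosen on some of these same genes. The overlap of 5% pdRBC members with those sets is therefore no separate result. Its part in the folds of these genes was not tested. The other leading higher genes were STMN1, LEPROTL1, AKIRIN1, ADNP, FILIP1L and CTXN1. ADNP and AKIRIN1 came to 0.03 and 0.12 on the log2 scale when members were chosen and read in separate UMIs. In the same reading DACH1 came to 0.72 and FOS to 2.88.

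Genes lower in 5% pdRBC members were led by LINGO1, PRKCA, PCDH9, PRSS3 and MT2A. LINGO1, a leucine-rich repeat receptor known from neurons, stood at 20.2 CPM in 5% pdRBC members and 156 CPM in hRBC members, a log2 difference of −2.94 (−3.59 to −2.35), beside −3.15 in the remaining barcodes, so it differed between the libraries in members and remaining barcodes alike. MT2A, a metal-binding metallothionein with similar copies in the genome, stood at 1149 CPM in 5% pdRBC members and 2664 CPM in hRBC members, a log2 difference of −1.21 (−1.31 to −1.11), beside −0.29 in the remaining barcodes. PRKCA, protein kinase C alpha, stood at 77.7 CPM in 5% pdRBC members and 207 CPM in hRBC members, a log2 difference of −1.41 (−1.79 to −1.03), beside −0.52 in the remaining barcodes. PODXL, the sialomucin podocalyxin, stood at 296 CPM in 5% pdRBC members and 644 CPM in hRBC members, a log2 difference of −1.12 (−1.32 to −0.91), beside −0.42 in the remaining barcodes. NAV3, a microtubule-associated navigator protein, stood at 174 CPM in 5% pdRBC members and 378 CPM in hRBC members, a log2 difference of −1.12 (−1.38 to −0.85), beside 0.00 in the remaining barcodes. PCDH9, a protocadherin, stood at 57.5 CPM in 5% pdRBC members and 147 CPM in hRBC members, a log2 difference of −1.36 (−1.81 to −0.90), beside 0.22 in the remaining barcodes. The rest were PRSS3, of a family of similar trypsinogens, ARHGAP23, MIR31HG, SLC9A3R2, C16orf74 and BEST1. In separate UMIs PCDH9 came to −0.65, ARHGAP23 to −0.45 and BEST1 to −0.10 on the log2 scale.

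**Figure D5:**
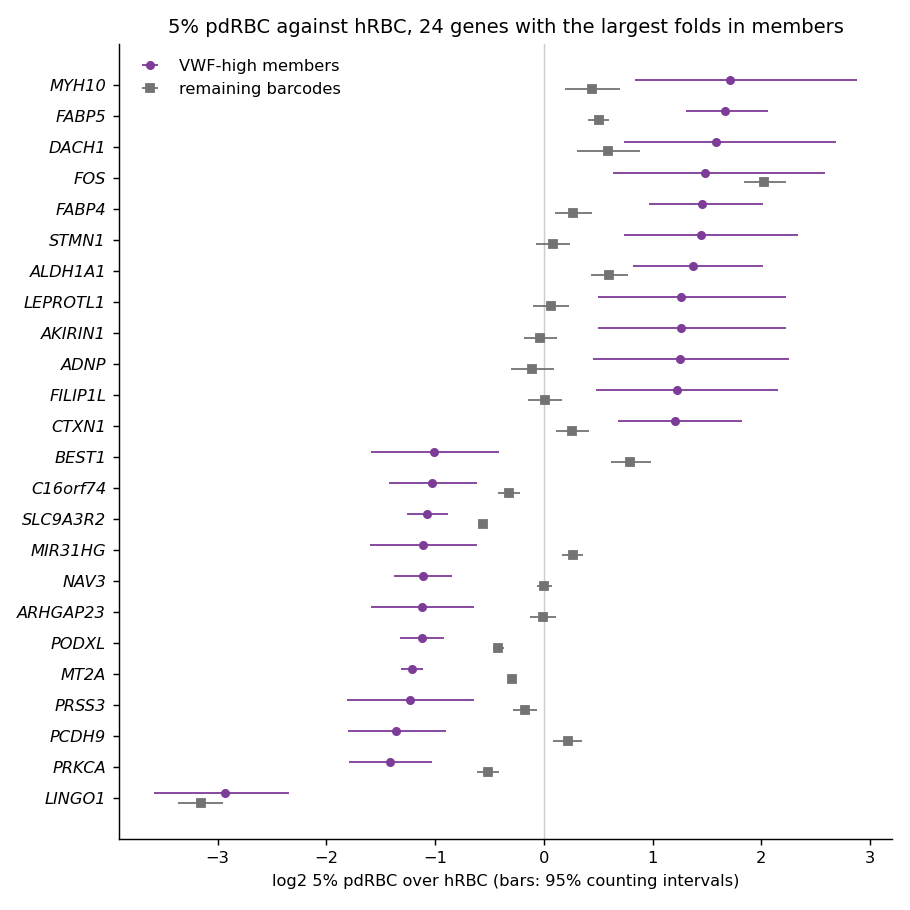
Log2 fold of 5% pdRBC over hRBC (horizontal axis) for the 12 genes with the largest folds in each direction in members, in members (purple circles) and in the remaining barcodes (grey squares), with 95% counting intervals as bars. FABP5 lies at 1.66 in members and 0.51 in the remaining barcodes, LINGO1 at −2.94 and −3.15, and NAV3 at −1.12 and 0.00.

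Immediate early genes had a median log2 difference of 5% pdRBC over hRBC of 0.32 in members and 0.57 in the remaining barcodes, over the 10 genes with enough UMIs. FOS, JUNB and IER3 were higher and FOSL1 lower in 5% pdRBC members, and 5 of the same genes were higher in the remaining 5% pdRBC barcodes. FOS, a subunit of AP-1, came to 1.48 (0.63 to 2.59) in members, beside 2.02 (1.84 to 2.22) in the remaining barcodes. JUNB, another AP-1 subunit, came to 0.66 (0.05 to 1.37) in members, beside 0.65 (0.52 to 0.78) in the remaining barcodes. Among genes below the minimum or not called in members, EGR1, with 32 UMIs in 5% pdRBC members and 4 in hRBC members, came to 1.29 (−0.05 to 3.40) in members, beside 3.06 (2.76 to 3.40) in the remaining barcodes. KLF4 came to −0.12 (−0.76 to 0.59) in members, beside 1.06 (0.93 to 1.18) in the remaining barcodes. CXCL8 came to −0.44 (−1.66 to 1.02) in members, beside 1.03 (0.87 to 1.21) in the remaining barcodes. The difference between these differences, here and for the genes that follow, has no replicate and was not tested.

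Of 10 genes responsive to laminar flow 5 were lower in 5% pdRBC members, NOS3, TEK, HMOX1, SLC9A3R2 and ITPR3, and none was higher. HMOX1 stood at 248 CPM in 5% pdRBC members and 396 CPM in hRBC members, a log2 difference of −0.68 (−0.92 to −0.43), beside 0.32 in the remaining barcodes. TEK, the angiopoietin receptor, stood at 88.4 CPM in 5% pdRBC members and 175 CPM in hRBC members, a log2 difference of −0.99 (−1.37 to −0.59), beside −0.32 in the remaining barcodes. NOS3, the endothelial nitric oxide synthase, stood at 63.8 CPM in 5% pdRBC members and 117 CPM in hRBC members, a log2 difference of −0.88 (−1.35 to −0.40), beside −0.45 in the remaining barcodes. Of 30 trafficking genes 2 were higher and none lower in 5% pdRBC members, and of 15 genes for folding, sorting and cleavage none was higher and 1 lower, where 3.26% and 3.42% of all genes compared were called. MYH10 and PLD1, a phospholipase that acts in exocytosis of the organelle, were higher in 5% pdRBC members, and MCFD2, which with LMAN1 forms an export receptor, was lower. PLD1 stood at 70.8 CPM in 5% pdRBC members and 44.7 CPM in hRBC members, a log2 difference of 0.64 (0.02 to 1.37), beside −0.01 in the remaining barcodes. MCFD2 stood at 70.1 CPM in 5% pdRBC members and 119 CPM in hRBC members, a log2 difference of −0.77 (−1.22 to −0.30), beside 0.00 in the remaining barcodes. Of 7 cargoes of Weibel-Palade bodies none was called.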

How the data were processed

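HUVECs of 2 libraries of 10x Genomics 5′ chemistry (kit version 2) were described. The values are UMI counts as the authors deposited them, for each gene in each barcode. Cell Ranger 7.0.0 made them, per the file headers, on GRCh38, per the submitters' processing notes. Which annotation release, strand setting and intron setting were used is not given in the sources used here, so antisense and overlapping genes and the levels of long genes are uncertain. Deposited barcodes held 16158876 UMIs in 5% pdRBC and 14321939 in hRBC.

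Members and gene lists were chosen with earlier results of these data known. UMIs were summed over members and over the remaining kept barcodes of each library and divided by their total to give CPM, and folds used 0.5 UMIs added to each sum. With 1 library per treatment, and barcodes not being replicates, no test was run. Intervals are exact Clopper-Pearson 95% intervals and cover counting error only. Members and remaining barcodes were compared at 500 UMIs and 1.25-fold in both libraries, and 5% pdRBC and hRBC within members at 100 UMIs and 1.5-fold.

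Named genes were the 12 per direction with the largest fold (for members, the smaller of both libraries), with intervals leaving out 1. Genes of the mitochondrial genome, ribosomal proteins, hemoglobins, clone names, LINC names and sex-linked genes were not eligible. Measured genes of the Weibel-Palade and VWF lists and up to 4 of each other list were added. Other list members named in the text, and CD9, were chosen after their values were seen. Of 36601 genes 34616 (94.6%) matched GENCODE 29 by identifier, which gave spans and positions. A few results are not reported here. No doublet caller was run and all barcodes stayed in. Of barcode sequences, 9 deposited and 2 kept ones occurred in both libraries. Python 3.11.15, numpy 2.4.6, scipy 1.17.1, pandas 2.3.3 and matplotlib 3.10.9 were used, and edgeR 4.0.16 in R 4.3.3 for TMM factors only. The calculations were tested on simulated data. Alternatives changed the barcode filter, the share taken as members, depth, the UMIs read, weights, totals, scaling, cycling barcodes and the gene minimum.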

Additional observations from a re-analysis of the deposited data

Results flagged for a closer look

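Some genes differed between members and remaining barcodes one way in 5% pdRBC and the other way in hRBC, by at least 1.25-fold each way and with counting intervals on opposite sides of no change. With 1 library per treatment the difference was not tested. On the log2 scale, members over remaining barcodes, STMN1, a microtubule destabiliser, came to 0.40 in 5% pdRBC and −0.96 in hRBC. PRKCA came to −0.51 in 5% pdRBC and 0.39 in hRBC, and PCDH9 to −0.67 in 5% pdRBC and 0.90 in hRBC. BEST1, a bestrophin chloride channel, came to −0.65 in 5% pdRBC and 1.15 in hRBC. PFKFB3, a regulator of glycolysis, came to −0.68 in 5% pdRBC and 0.84 in hRBC.

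BEST1 also differed between treatments in opposite ways, with a log2 difference of 5% pdRBC over hRBC of −1.01 in members and 0.80 in the remaining barcodes, untested as well. Its hRBC members held 43 UMIs.

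Barcodes that the filter left out still carried VWF. The 266 left-out barcodes of 5% pdRBC stood at 762 CPM and the 3089 of hRBC at 479 CPM. All kept barcodes, members included, stood at 427 CPM in 5% pdRBC and 384 CPM in hRBC. Without members the kept barcodes stood at 324 and 333 CPM. Median depth of the left-out barcodes was 2961.5 UMIs in 5% pdRBC and 1115 UMIs in hRBC.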

How the results depend on the processing

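No paired analysis was possible because each treatment is 1 library, and no replicate could be left out for the same reason. The alternatives on long-gene share and the weighting on depth were chosen after seeing the data. Genes higher and lower in members (763 and 385) came to 505 and 275 with the top 20% as members, 224 and 158 after thinning to 5000 UMIs, 455 and 244 with choice and reading in separate UMIs, 335 and 868 under TMM scaling, and 330 and 366 with long-gene shares matched. With gene minimums of 100, 2000 and 1 UMIs they came to 1580 and 654, 189 and 166, and 9182 and 878. Under TMM scaling all 335 higher genes were among the 763, and all 385 lower genes stayed lower. This had to be so, since the scaling lowers every log2 difference of a library by the same amount. With long-gene shares matched, 301 higher and 256 lower genes were shared. Genes higher and lower in 5% pdRBC members than in hRBC members (119 and 125) came to 217 and 99 with the top 20%, 65 and 76 in separate UMIs, and 945 and 846, 8 and 15, and 2872 and 3311 at minimums of 20, 500 and 1 UMIs over all members in place of 100. In the remaining barcodes (24 and 9) they came to 8 and 5 with the top 5%, 53 and 17 with the top 20%, 10 and 5 in separate UMIs, and 115 and 48, 3 and 4, and 1788 and 999 at those minimums, with 9 higher after thinning. Higher minimums and thinning leave fewer genes to test, and at a minimum of 1 a call can rest on 1 UMI.

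VWF in members came to 2.20 in 5% pdRBC and 2.14 in hRBC on the log2 scale after thinning, to 1.52 and 1.31 in separate UMIs, and to 2.09 in hRBC with the top 5%. Members were 6.36% of 5% pdRBC and 2.60% of hRBC barcodes with the top 5%, 22.3% and 16.0% with the top 20%, 10.0% of each when chosen per library, and 14.97% and 11.2% after thinning, which leaves ties. BEST1 (5% pdRBC over hRBC in members) reversed to 0.39 with the top 20%, and MRC2 (hRBC members over remaining barcodes) to −0.21 after thinning. The cause of these changes was not tested. Of the other values for named genes, members over remaining barcodes, 812 stayed within their counting interval and 51 did not. Changing the gene minimum cannot move these values, so part of the 812 was fixed in advance. GEM, ADM and FST had 1, 2 and 5 UMIs in hRBC members, so depth limits their folds.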
